A study of Cucumis sativus with 2 samples.

Results

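SMALL AUXIN UP RNA (SAUR) genes were examined in bending cucumber (Cucumis sativus) fruit at 2 days after anthesis, in poly(A) RNA of the ventral side and of the dorsal side, with 1 library per side. No genotype, cultivar or treatment is given in the labels for either side, and they do not say which side is the outer one of the bend or how many fruits went into a library. A gene counted as a SAUR homologue when the Arabidopsis locus paired with it in the deposited table was one of 49 listed SAUR loci, or when its symbol began with SAUR. This rule found 58 of 20700 genes, 56 by locus and 2 by symbol alone. The listed loci were hit unevenly: 22 of 49 had at least 1 cucumber gene, and 22 cucumber genes shared the single locus AT4G38840. Symbols were present for 11 of the 58 genes, so most are given here by their cucumber identifier and Arabidopsis locus.

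SAUR genes form the largest family of early auxin-response genes in plants and encode small proteins. In Arabidopsis, SAUR proteins of the SAUR19 to SAUR24 group bind and inhibit clade D type 2C protein phosphatases, which otherwise switch off the plasma membrane proton pumps; with the pumps active the wall is acidified and cells expand. In soybean hypocotyls, SAUR transcripts are known for becoming unequal between the sides of an organ that bends. The design has a single comparison, ventral against dorsal, which asks what differs in RNA level across a bending fruit.

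The ventral library held 21863715 reads and the dorsal library 11893394, and each ratio below is ventral over dorsal after scaling by the trimmed mean of M values (TMM), by which the ventral library was 2.16 times as deep. Square brackets hold log2 bounds of the 95% counting interval. With 1 library per side there was no test, no ratio has a replicate check, and intervals cover counting error only. A gene was measured with at least 20 reads summed over both libraries, and it is said to stand apart when it was at least 2-fold higher or lower and its interval excluded a ratio of 1. Ratios also moved with exonic length over the whole series, with a median of -0.30 (log2) below 607 bp, where 21 of the 34 measured homologues lie, -0.53 at 607 to 857 bp and 0.74 above 2850 bp. SAUR transcripts are short, so the counts over the family are also set beside those of 6559 other measured genes within 10% of the exonic length of a SAUR homologue. Each such gene counts once, and as a set they are longer, with a median of 883 bp against 565 bp for the measured homologues. Their shares and overall median are thus a loose match, above all for the shortest members. Like-length medians given for a single member use only the genes within 10% of its own length.

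The family was a small and uneven part of the fruit transcriptome. All 58 genes together took 5465 ventral reads (0.0250% of the library) and 2316 dorsal reads (0.0195%). Of these genes 34 were measured and 24 were not. The 24 had at most 8 reads in either library. In that group 4 genes had 0 ventral reads and 7 had 0 dorsal reads, with at most 6 reads in the other library, so no ratio is given for them. Among them were Csa7G018810, the homologue of SAUR63, a gene that promotes organ elongation in Arabidopsis, with 0 ventral and 2 dorsal reads, and Csa7G009130, the homologue of SAUR20, with 3 ventral and 0 dorsal reads. At 0 reads a level of up to 3 reads cannot be told from none, which corresponds to 0.137 CPM for the ventral library and 0.252 for the dorsal one. A further homologue of AT4G38840, Csa7G008960, appeared only among the deposited RPKM values, at 0.14 for the ventral library and 0 for the dorsal one.

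Measured SAUR homologues had the structure usual for the family. Their median exonic length was 565 bp, against 1464 bp for all measured genes, and in 28 of 34 the exonic length was at least 97% of the listed gene length, as in a gene without introns, against 14.3% of all measured genes. One gene went against the label: Csa4G332090 was taken in by its symbol SAUR21 alone, its locus AT5G01830 is not among the listed SAUR loci, and its exonic length of 2390 bp was more than that of any other measured homologue, the next being 1146 bp. It had 225 ventral and 67 dorsal reads, a log2 ratio of 0.64 [0.24 to 1.05], and did not stand apart.

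Expression was concentrated in a few members. The most abundant in each library, by RPKM, which scales reads by length and depth, was Csa2G258100, a homologue of AT4G34760, at 102.96 ventral and 47.79 dorsal RPKM. Next came Csa3G118740, a homologue of AT2G46690, at 51.12 and 42.61, and Csa3G866530, a homologue of AT1G75590, at 40.87 ventral and 20.25 dorsal. Csa2G258640, a homologue of SAUR24 from the growth-promoting Arabidopsis group, stood at 27.08 ventral and 26.49 dorsal RPKM, and Csa6G106780, another AT2G46690 homologue, at 7.05 and 18.77. These 5 had the highest mean RPKM. Their order held beyond counting error in the ventral library, apart from Csa6G106780, which there lay below other members such as Csa3G171820 at 13.06. In the dorsal library the 95% Poisson intervals of Csa2G258100 (43.3 to 52.6) and Csa3G118740 (38.7 to 46.8) overlapped, as did those of Csa2G258640 (22.2 to 31.4), Csa3G866530 (17.1 to 23.8) and Csa6G106780 (15.5 to 22.5). The 3 members with most reads held 56.3% of the family's ventral and 42.9% of its dorsal reads. Across the 34 measured members the median was 4.11 ventral and 4.80 dorsal RPKM, against 14.1 and 11.1 RPKM for all measured genes.

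**Figure D1:**
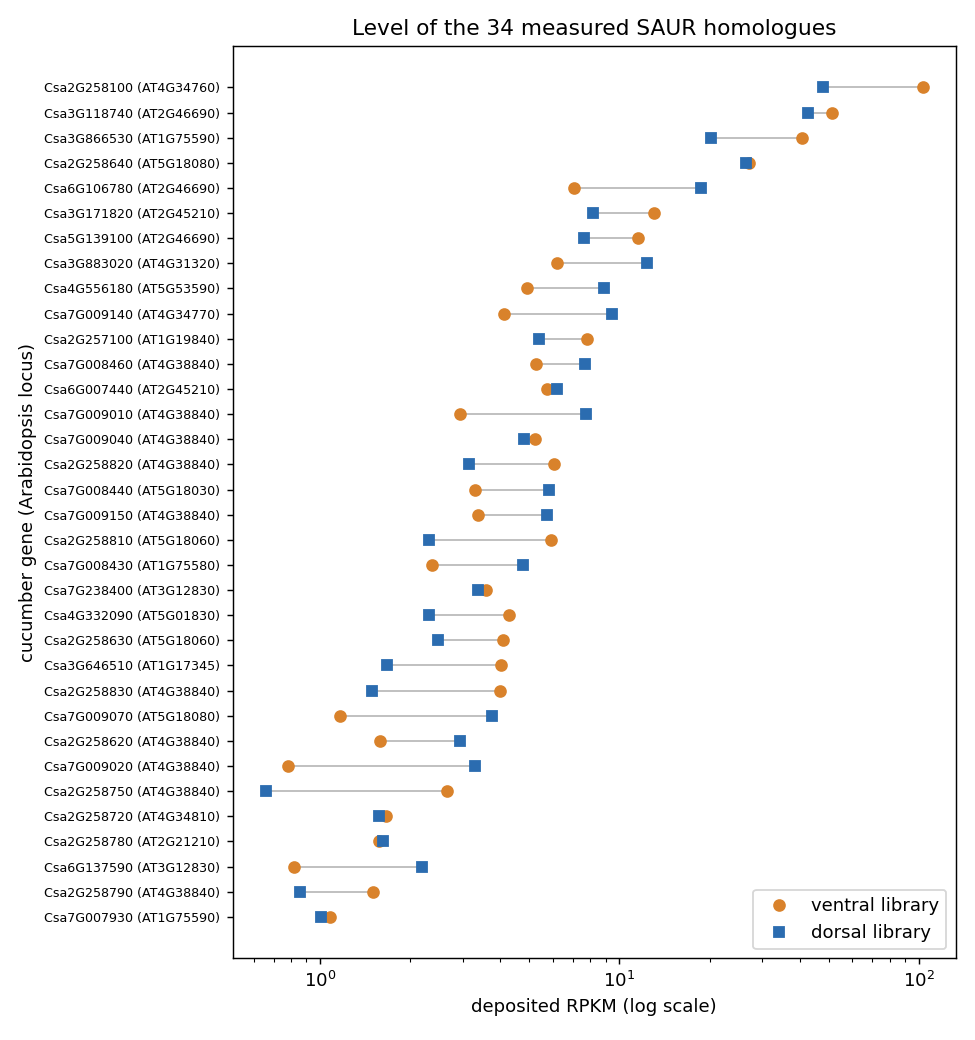
Deposited RPKM (log scale) of the 34 measured SAUR homologues, 1 row per gene in order of mean RPKM, with circles for the ventral and squares for the dorsal library. Csa2G258100 reached 102.96 ventral and 47.79 dorsal RPKM, and most members lay below 10, with the order of the libraries differing from gene to gene.

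The family as a whole had no common direction. Among the 34 measured members the ventral library was higher by this rule in 3 and lower in 11, and 20 did not stand apart. The share higher, 8.82%, compares with 13.2% of all measured genes and 9.27% of genes of like length. The share lower, 32.4%, compares with 11.5% of all measured genes and 21.3% of genes of like length. The median log2 ratio of the members was -0.20, against 0.01 for all measured genes and -0.39 for genes of like length, and 21 of 34 members lay above the median of their own like-length genes. With the trend of ratio with exonic length removed, 7 members stood apart higher (20.6%, against 10.9% of all measured genes and 14.9% of those of like length) and 5 lower (14.7%, against 8.34% and 10.3%), and the median turned to 0.27. The direction of the median therefore flips with the length correction, and also under scaling by total reads, where it was 0.035. Since the filter asks for reads in sum, these counts describe the members that passed it, not all 58.

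**Figure D2:**
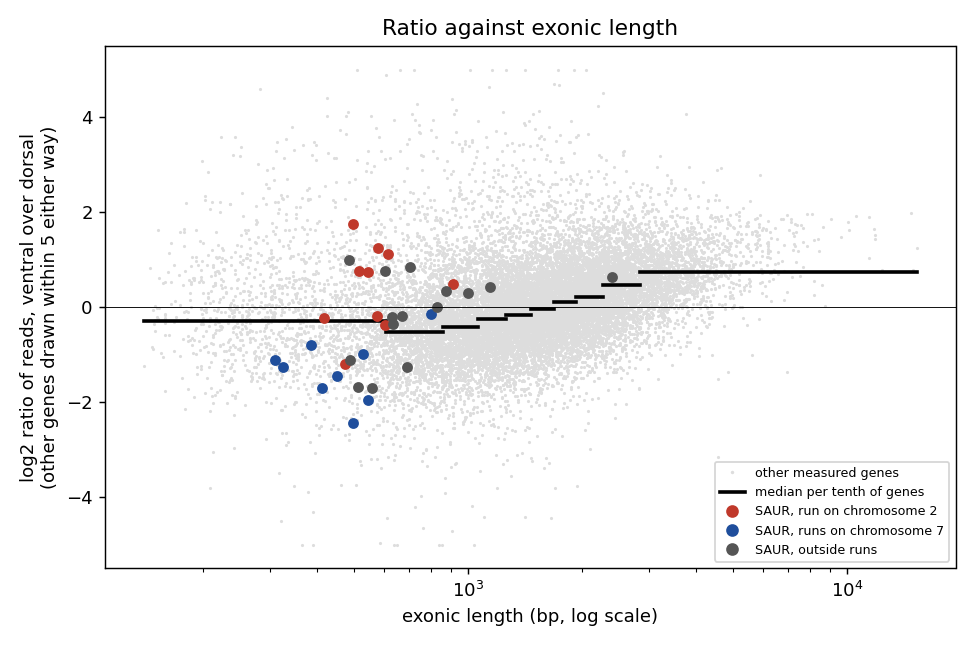
Log2 ratio of reads, ventral over dorsal, against exonic length (log scale) for measured genes, with black bars for the median of all measured genes in 10 classes of length and coloured points for SAUR homologues on the chromosome 2 run, on the chromosome 7 runs and elsewhere. Of the 34 homologues, 31 are shorter than 1000 bp, where the medians of all genes lie below 0, and they spread on both sides of those medians.

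Most members sit in runs of adjacent identifiers, and these runs differed from each other. The runs held all 22 homologues of AT4G38840, along with those of SAUR20, SAUR23 and SAUR24 and of other loci. When members were joined wherever identifier numbers on a chromosome lay within 100 of each other, which was done after the values were seen, 37 of 58 members fell into 3 runs. One run on chromosome 2, from Csa2G258610 to Csa2G258830, held 19 members. On chromosome 7 a run of 3 went from Csa7G008430 to Csa7G008460 and a run of 15 from Csa7G008980 to Csa7G009150. The files give no start and end positions, so closeness rests on the identifiers. Near-identical copies can share reads, and how such reads were counted is not given in the sources used here, so the split between copies within a run is uncertain.

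In the chromosome 2 run, 10 of 19 members were measured. The highest ratios were those of Csa2G258750 and of the last 3 members by identifier. Csa2G258810, a homologue of SAUR23, had 80 ventral and 17 dorsal reads, 2.18-fold higher in the ventral library, with a log2 ratio of 1.12 [0.36 to 1.97]. Csa2G258830, an AT4G38840 homologue, had 51 ventral and 10 dorsal reads, 2.36-fold higher at 1.24 [0.25 to 2.38]. Csa2G258750, of the same locus, had 29 ventral and 4 dorsal reads and was 3.36-fold higher at 1.75 [0.24 to 3.72]. These 3 were the SAUR homologues standing apart higher in the ventral library, and each rests on 17 or fewer dorsal reads, so the intervals are wide. Csa2G258820, with 69 ventral and 19 dorsal reads, reached 1.68-fold at 0.75 and did not stand apart.

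The other measured members of the run did not stand apart higher. Csa2G258790, with 18 ventral and 5 dorsal reads, was at 0.74, and Csa2G258630, with 82 and 27, at 0.49, while Csa2G258720 was at -0.18 and Csa2G258780 at -0.37. The SAUR24 homologue Csa2G258640, the member of the run with most reads, had 249 ventral and 135 dorsal reads and a log2 ratio of -0.23 [-0.54 to 0.09]. Csa2G258620 stood apart lower, with 16 ventral and 17 dorsal reads at -1.20 [-2.28 to -0.12], and with the length trend removed, at -0.79, it did not. In all, 6 of the 10 measured members lay above 0, 3 stood apart higher and 1 lower, and the median was 0.61. Genes of like length had a median of -0.39, with 9.27% higher and 21.3% lower. After removal of the length trend 4 were higher, none was lower, and the median was 1.05. Summed over all its members, the run had 649 ventral and 275 dorsal reads, a log2 ratio of 0.13 [-0.08 to 0.34]. That interval included a ratio of 1.

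In the chromosome 7 runs all 9 measured members had a log2 ratio below 0 under TMM scaling, and 8 of 9 under scaling by total reads, where Csa7G009040 was at 0.091. In these runs 6 of 9 stood apart lower and none higher. Genes of like length had 21.3% lower and 9.27% higher, and all measured genes 11.5% and 13.2%. With the length trend removed 4 of the 9 stood apart lower, beside 10.3% of genes of like length. Under scaling by total reads 5 did, beside 7.35% of all measured genes. Csa7G009020, an AT4G38840 homologue, had 8 ventral and 20 dorsal reads, 5.40-fold lower in the ventral library, with a log2 ratio of -2.43 [-3.82 to -1.19]. Csa7G009070, a homologue of SAUR24, had 14 ventral and 25 dorsal reads and was 3.86-fold lower at -1.95 [-3.00 to -0.95]. Csa7G009010 had 26 ventral and 39 dorsal reads and was 3.24-fold lower at -1.70 [-2.47 to -0.94]. Csa7G009140, the homologue of AT4G34770, was lower as well, by 2.74-fold, with 41 ventral and 52 dorsal reads at -1.45 [-2.08 to -0.84]. These 4 stood apart with the length trend removed too, at log2 ratios from -2.01 to -1.07.

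The short run on chromosome 7 had 84 ventral and 77 dorsal reads in sum, a log2 ratio of -0.99 [-1.45 to -0.52], and the longer run 256 and 244, a ratio of -1.04 [-1.30 to -0.78]. Csa7G008430, a homologue of AT1G75580, had 17 ventral and 19 dorsal reads, a log2 ratio of -1.27 [-2.31 to -0.25], and Csa7G008440, of AT5G18030, had 22 and 22 reads at -1.11 [-2.03 to -0.19]. Both stood apart lower, but with the length trend removed, at -0.99 and -0.85, neither did. At their lengths of 326 and 309 bp the like-length genes had medians of -0.11 and -0.06. Of the other measured members of these runs, Csa7G008460 had 45 ventral and 36 dorsal reads at -0.79 and Csa7G009040 had 92 and 47 at -0.14. Csa7G009150, with 40 and 37 reads, fell just short of a 2-fold difference. None of these stood apart. Outside the runs, chromosome 7 held 2 more measured members, Csa7G007930 with 15 ventral and 8 dorsal reads at -0.20 and Csa7G238400 with 53 and 28 at -0.19, which did not stand apart either.

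Set side by side, the chromosome 2 run had 649 ventral and 275 dorsal reads over its 19 members, and the 18 members of both chromosome 7 runs had 340 and 321. The ventral over dorsal ratio of the chromosome 2 run was thus 2.23 times that of the chromosome 7 runs, with a 95% counting interval of 1.80 to 2.76 from exact conditional odds. This quotient does not depend on library scaling. Its interval pools the reads of different genes, so it leaves out the spread between members, and the runs were joined after the values were seen. Without the member with most reads in each set the quotient was 3.15 (2.42 to 4.12), outside the interval for all members. Median exonic length was 559 bp in the chromosome 2 run and 450 bp in the chromosome 7 runs. Set against the medians of like-length genes 9 of 10 measured members of the chromosome 2 run lay above, and 1 of 9 in the chromosome 7 runs. The split was less sharp against genes of like length whose summed reads also lay within 2-fold. There Csa2G258720 (-0.18 against -0.11) and Csa2G258780 (-0.37 against -0.14) fell below, and all other measured members of these runs kept their side. Of 5 other genes lying inside the runs by identifier, 3 were close to a ratio of 1: Csa2G258680 had a log2 ratio of 0.07, Csa7G009060 -0.21 and Csa7G009110 -0.26. Csa7G008450, which has no Arabidopsis locus in the table, had 19 ventral reads and 1 dorsal read at 3.14 [0.48 to 8.51], and Csa7G009090 had 0 and 1 and was not measured.

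**Figure D3:**
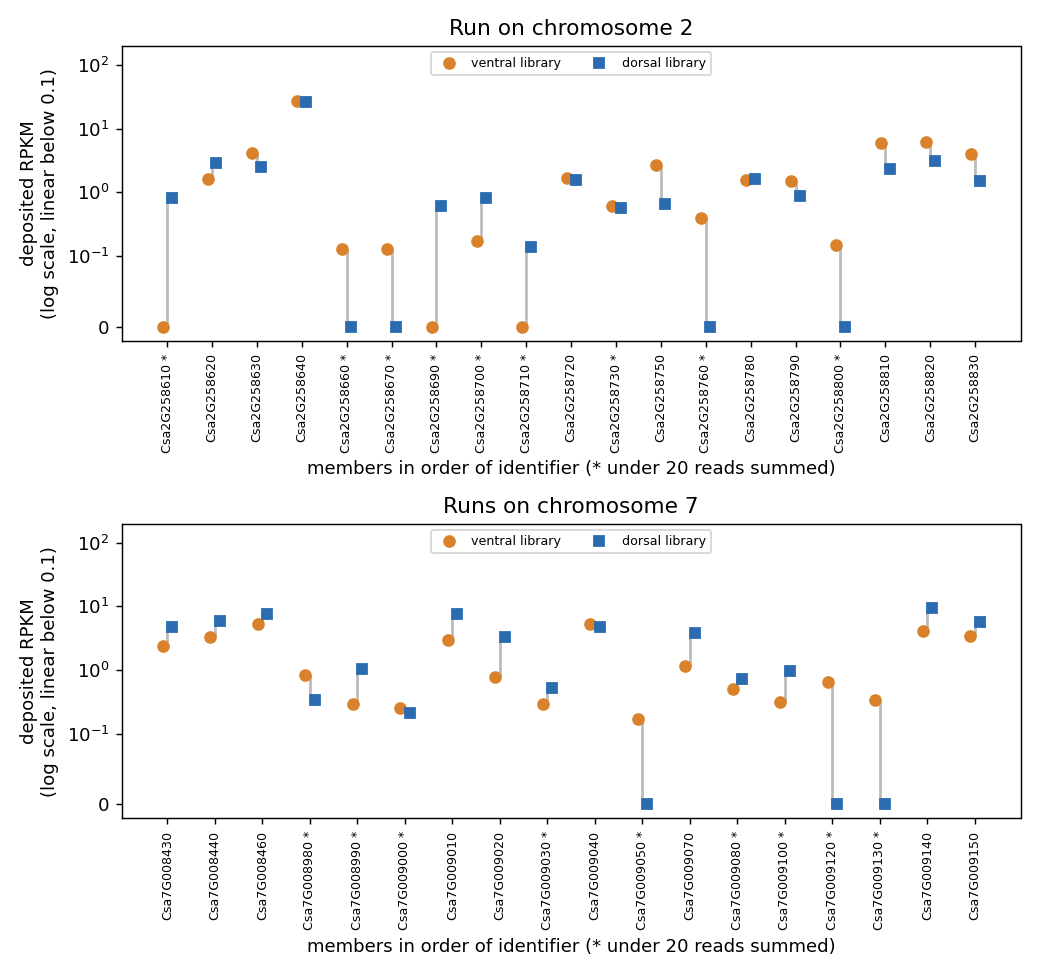
Deposited RPKM (log scale, linear below 0.1) of every member of the run on chromosome 2 (upper panel) and of both runs on chromosome 7 (lower panel), in order of identifier, with circles for the ventral and squares for the dorsal library and an asterisk for members under 20 reads. On chromosome 2 the last 3 members lie higher in the ventral library, whereas the measured members of the chromosome 7 runs other than Csa7G009040 lie lower in it.

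The same Arabidopsis locus occurred on both chromosomes with different ratios. Of the 22 homologues of AT4G38840, 10 were measured, 2 standing apart higher in the ventral library and 3 lower. Genes of like length had 9.27% higher and 21.3% lower, and all measured genes 13.2% and 11.5%. The log2 ratios of the 10 ran from -2.43 for Csa7G009020 to 1.75 for Csa2G258750. The SAUR24 homologues were -0.23 for Csa2G258640 and -1.95 for Csa7G009070, with intervals that did not overlap. Homologues of AT4G38840 thus lay on both sides of a ratio of 1.

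**Figure D4:**
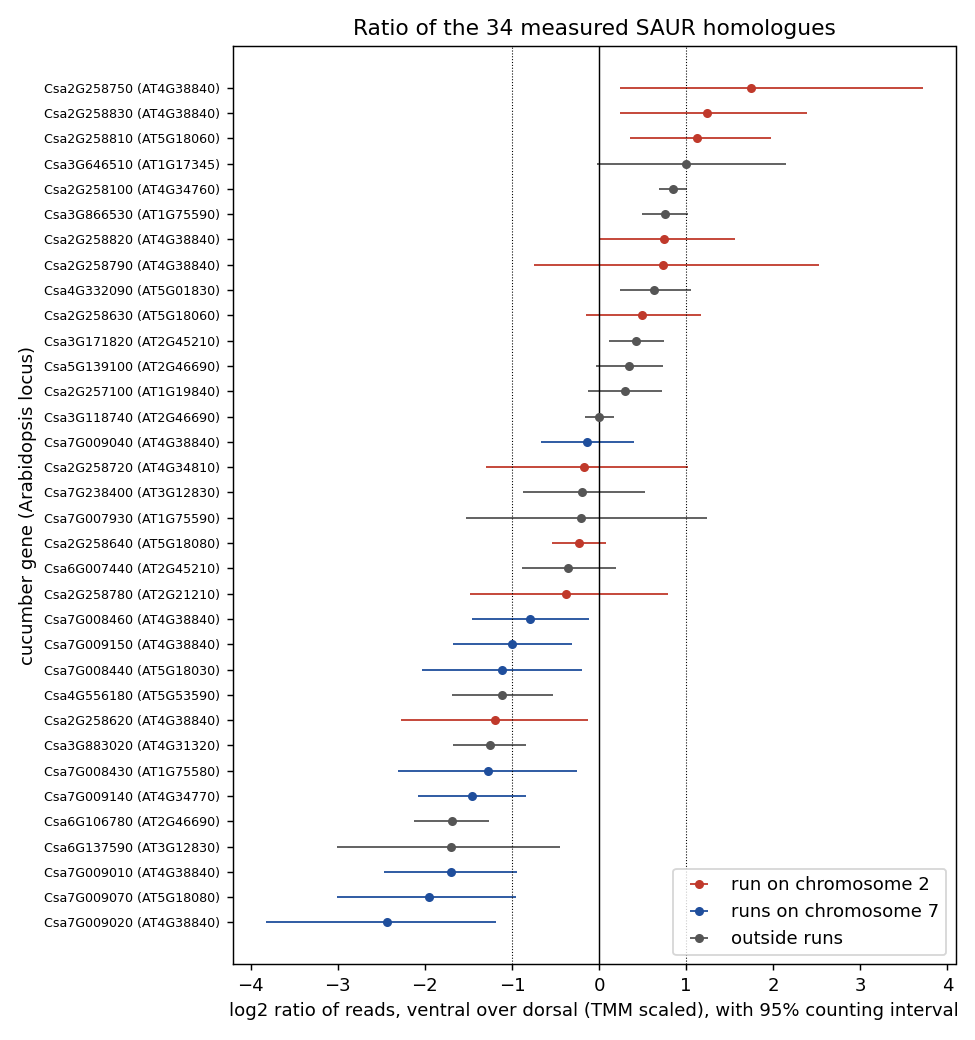
Log2 ratio of reads, ventral over dorsal after TMM scaling, of the 34 measured SAUR homologues with 95% counting intervals, coloured by run, with dotted lines at a 2-fold difference. The 9 measured members of the chromosome 7 runs lie at or below -0.14 with this scaling (up to 0.091 with total reads), the chromosome 2 run reaches 1.75, and many intervals cross a dotted line.

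Outside the runs were 21 members, 15 of them measured, with no member standing apart higher and 4 lower, beside 9.27% and 21.3% of genes of like length. Here lie the best-read genes of the family, whose counting error is smallest. Csa2G258100 had 1598 ventral and 411 dorsal reads, a log2 ratio of 0.85 [0.69 to 1.01], and Csa3G866530 had 543 and 149 at 0.75 [0.49 to 1.03]. Both fell short of 2-fold, 1.80-fold and 1.69-fold, yet at lengths of 704 and 603 bp the like-length genes had medians of -0.57 and -0.53, and with the length trend removed both stood apart higher, at 1.33 and 1.23. Csa3G646510, a homologue of AT1G17345, had 43 ventral and 10 dorsal reads at 0.99 [-0.02 to 2.15] and stood apart with that trend removed, at 1.41.

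The 3 homologues of AT2G46690 differed among themselves. Csa6G106780 had 79 ventral and 118 dorsal reads, 3.23-fold lower in the ventral library at -1.69 [-2.12 to -1.27], and stood apart with the length trend removed, at -1.26. Its relatives Csa3G118740, with 936 and 433 reads at 0.00 [-0.16 to 0.17], and Csa5G139100, with 222 and 81 reads at 0.34 [-0.03 to 0.73], did not stand apart. The interval of Csa6G106780 overlapped that of neither.

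The remaining members lower in the ventral library were of different loci. Csa3G883020, a homologue of AT4G31320, had 94 ventral and 104 dorsal reads at -1.26 [-1.67 to -0.84]. Csa4G556180, of AT5G53590, had 53 and 53 reads at -1.11 [-1.69 to -0.53]. Csa6G137590, of AT3G12830, had 10 and 15 reads at -1.70 [-3.01 to -0.45]. With the length trend removed the first 2 were short of 2-fold, at -0.77 and -0.70. Csa6G137590 was still 2.36-fold lower, at -1.24, but its interval, which then reached 0.0091, no longer excluded a ratio of 1. The homologues of SAUR36, known in Arabidopsis as a promoter of leaf senescence, did not stand apart, with 330 ventral and 114 dorsal reads and 0.42 [0.11 to 0.74] for Csa3G171820 and with 81 and 48 reads and -0.36 [-0.89 to 0.19] for Csa6G007440.

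Members were also grouped by chosen lists of loci. The group of AT4G38840, SAUR20, SAUR23, SAUR24 and related loci had 36 members and 18 measured. Of these 3 were higher and 6 lower, with a median of -0.30 (0.12 with the length trend removed). The 7 homologues in the group of AT4G34760 had 5 measured members, none higher, 1 lower, with a median of 0.29 (0.66). The group of AT2G45210 and AT2G46690 had 9 members and 7 measured, none higher, 3 lower, with a median of -0.36 (0.12). Both measured members of the AT1G16510 group, homologues of AT3G12830, lay below 0 and 1 stood apart lower, and of the 4 other members 2 were measured and neither stood apart. The medians of 2 of these groups changed sign with the length correction. Of genes of like length 9.27% were higher and 21.3% lower, and with so few members a count of 1 to 6 says little beside these shares.

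Genes that SAUR proteins act through, and genes of auxin response upstream of them, were taken by Arabidopsis locus. Their counts stand beside 13.2% higher and 11.5% lower among all measured genes, or 10.9% and 8.34% with the length trend removed. Clade D phosphatases, which SAUR proteins inhibit in Arabidopsis, had 9 cucumber genes by locus, all measured. Of these 2 were higher in the ventral library and none lower, with a median of 0.39. AT4G38520 and AT3G12620 recurred among them, while the listed loci AT5G02760, AT3G55050 and AT5G66080 had no cucumber gene. Csa7G071520, of AT4G33920, had 1470 ventral and 162 dorsal reads at 2.07 [1.84 to 2.31], and Csa5G177060, of AT3G12620, had 727 and 132 at 1.35 [1.08 to 1.63]. Both stood apart with the length trend removed, at 2.12 and 1.62. The other AT3G12620 homologue, Csa3G736630 at 0.39, did not stand apart. Among 8 measured proton pump genes none was higher, and Csa1G423270, symbol HA5, was lower with 162 ventral and 219 dorsal reads at -1.55 [-1.85 to -1.25]. The other measured HA5 homologues, Csa2G378540 at 0.27 and Csa2G378530 at 0.30, did not stand apart. The pump gene with most reads, Csa1G045600, symbol HA11, had 8785 and 2520 reads at 0.69 and did not stand apart.

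In auxin response, none of 5 measured receptor genes stood apart, and 4 of 6 genes for activating auxin response factors were higher, led by MP (Csa3G866510) at 1.43 and ARF6 (Csa6G524670) at 1.26. These are long transcripts, and none of the 6 stood apart with the length trend removed. Before that removal the other ARF6 homologue, Csa1G536820, was at 0.97 and did not stand apart. Of 27 measured Aux/IAA repressor genes, themselves early auxin-response genes, 2 were higher and 7 lower, with a median of -0.72, and with the length trend removed 2 were higher and 4 lower, with a median of -0.52. SLR (Csa2G200420) had 19 ventral and 160 dorsal reads at -4.18, and IAA4 (Csa7G378530) had 1899 and 4837 at -2.46. The other SLR homologues, Csa2G010920 at -0.78 and Csa3G143570 at -0.96, had more reads and did not stand apart. Of the other IAA4 homologues, Csa3G143580 stood apart lower at -1.34, though not with the length trend removed. Csa2G200440 at -0.84 and Csa2G011420 at -0.22 did not stand apart. SHY2 (Csa5G166440), named after its values were seen, was higher in the ventral library, with 363 ventral and 23 dorsal reads at 2.87, and 3.29 with the length trend removed. Of 5 measured GH3 genes, which encode auxin-conjugating enzymes and respond early to auxin, 2 were higher and 1 lower. With the length trend removed 1 was higher and 1 lower. GH3.1 (Csa6G492310) had 478 ventral and 20 dorsal reads, a log2 ratio of 3.47, and GH3.17 (Csa4G007100) had 132 and 367, a ratio of -2.59. The other measured GH3.1 homologues, Csa6G493310 at 0.23 and Csa3G198490 at 0.12, did not stand apart. Among 6 growth factors of the PIF and BZR1 type, 1 was higher, a homologue with symbol PIL5 (Csa7G333400) at 1.24, and it did not stand apart with the length trend removed. The other PIL5 homologue, Csa3G622450, had 14 ventral and 8 dorsal reads at -0.30 and did not stand apart.

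Markers of single tissues were also counted, beside 13.2% higher and 11.5% lower among all measured genes. Of 7 genes for xylem markers, such as the vessel proteases XCP1 and XCP2, 5 were measured, 3 were lower and none higher in the ventral library, with 1216 ventral and 1217 dorsal reads in sum. The other 2 measured xylem genes did not stand apart, with Csa6G088080 at 0.53 [0.18 to 0.90] and Csa1G470270 at -0.22. Phloem markers had 1 of 21 higher and 4 lower, epidermis markers 1 of 6 measured higher and 1 lower, and none of 4 measured ovule and seed markers stood apart. The ovule gene INO had 1 and 3 ventral and 0 and 2 dorsal reads over its 2 copies. The part of tissue make-up in the SAUR ratios was not tested. In bulk tissue, fewer cells of a type and less RNA per cell cannot be told apart.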

How the data were processed

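The labels' protocols describe DNase-treated RNA, oligo(dT) selection, chemical fragmentation and directional libraries, and list an instrument for paired-end and another for single-end reads, with no assignment to libraries. The submitters' processing notes name TopHat2 and edgeR with no version. Genome build, counting tool and use of strand: not given in the sources used here. The authors deposited raw read counts for 20700 genes and, per the file headers, RPKM values for 20815 genes, each with a gene length and an Arabidopsis locus. No genome was used, and the reference gene table matched 0 of the identifiers, so no sequence is shown.

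TMM scaling used edgeR 4.0.16 (R 4.3.3) on the 17462 genes with at least 20 reads summed. Ratios carry exact conditional binomial (Clopper-Pearson) 95% intervals (SciPy 1.17.1), checked on simulated counts; amplified copies are not independent molecules. Exonic length came from reads divided by RPKM, its constant being the 99th percentile of derived over listed length among genes of at least 50 RPKM. The length trend was a lowess fit (statsmodels 0.14.6, fraction 0.3) over all measured genes. Other settings were total-read scaling, DESeq2 1.42.0 size factors, read minimums of 1 and 100, RPKM with a pseudocount of 1, a stricter interval and a 1.5-fold threshold.

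Named are members standing apart, the 5 with the highest mean RPKM, examples of members at 0, and up to 2 genes per pathway list. All other genes were named after their values were seen, and members and lists were chosen with earlier results of these data known.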

Additional observations from a re-analysis of the deposited data

How the results depend on the processing

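No paired analysis was possible because ventral and dorsal are represented by 1 library each. The setting without Csa4G332090, the quotient without the best-read members and the background of like reads were chosen after seeing the data. The median log2 ratio of the 34 measured members was -0.20. It was 0.035 under total-read scaling, which raises all log2 ratios by 0.23, 0.27 with the length trend removed, 0.0495 from deposited RPKM on the log2(RPKM + 1) scale, 0.15 over the 14 members with at least 100 reads, and -0.36 with a minimum of 1 read, over 45 members with a ratio. In the counts that follow, parentheses hold the share of all measured genes in the same direction under that setting. The 3 of 34 members higher in the ventral library (13.2%) became 5 under total-read scaling (19.1%) and 7 with the length trend removed (10.9%). They became 7 at a 1.5-fold threshold (24.3%), 0 of 14 with a minimum of 100 reads (12.2%) and 0 with the stricter interval (11.7%). The 11 lower members (11.5%) became 5 with the length trend removed (8.34%) and 5 from RPKM (5.29%). With a minimum of 100 reads 3 remained (10.4%), and with the stricter interval 7 (10.5%). The higher minimum leaves fewer genes, the stricter interval asks for more reads, and the 1.5-fold threshold asks for a smaller difference. Total-read scaling shifts every ratio up. Removing the length trend does so for every measured member but Csa4G332090, and the RPKM pseudocount draws ratios of low values together. How much each of these accounts for was not tested. Against genes of like length and reads (3528 genes, 10.6% higher and 20.9% lower), the shares of the members compare much as they do against genes of like length. DESeq2 size factors and leaving out Csa4G332090 kept both counts within 1.5 times. The median of the chromosome 2 run stayed above 0 (0.61 to 1.05) and that of the chromosome 7 runs below 0 (-1.28 to -0.99) under TMM, total-read and DESeq2 scaling and with the length trend removed. Of the members named, the 14 standing apart and the 4 others among the 5 with the highest mean RPKM were recomputed. The stricter interval and the 1.5-fold threshold leave ratios unchanged and were not part of this. Members under 100 reads had no value at that minimum, and no member standing apart changed sign. Over 115 values of these members, 14 lost their standing within the interval of the reported ratio and 10 moved outside it. Csa3G883020 with the length trend removed, at -0.77, was among the 10 and lost its standing too. Summed reads of the chromosome 2 run gave a log2 ratio of 0.13 with all members and 0.40 without Csa2G258640, and of the longer chromosome 7 run -1.04 and -1.38 without Csa7G009040. Depth limits members with few reads: over the measured members the interval was 1.38 wide (log2) at the median and 3.48 at most.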
